A study of Homo sapiens with 13 samples.

Results

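Active enhancers that carried the acetyltransferases p300 and CBP and lacked the promoter mark H3K4me3 were described in MDA-MB-231 cells, an established human line of triple-negative breast cancer grown under standard conditions. The members were chosen by their chromatin signals. A region enriched in H3K4me1 was kept when it was under 10000 bp wide, overlapped both H3K27ac and a p300/CBP peak by 1 bp or more, did not overlap H3K4me3, and touched no 3 kb window centred on the transcription start site (TSS) of the canonical transcript of a protein-coding gene. Of the 88319 H3K4me1 regions, 3210 met these criteria, or 3.63%. The study had profiled the 3 histone marks, RNA polymerase II (Pol II) and the insulator protein CTCF from 2 replicate libraries each, and p300/CBP from 1 library of pooled immunoprecipitations, in cells of a single condition. Because the replicates were merged before peaks were called and the lists give positions only, neither an error between replicates nor the depth behind a peak can be given. Intervals below are 95% intervals that cover counting error over regions, which are not replicates, and no p-value is given.

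p300 and CBP are closely related co-activators that acetylate histones, including lysine 27 of histone H3, and that reach DNA through the transcription factors that recruit them. Enhancers are typically marked by H3K4me1, by H3K27ac when they are active, and by little H3K4me3, which is found mainly at promoters. AP-1 factors, dimers of Fos and Jun family proteins, bind a short palindromic element known as the TRE and are strongly expressed in aggressive breast cancer cells, in which Fra-1 is the product of FOSL1.

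To show the DNA beneath these peaks, about 150 bp around the centre of the widest p300/CBP peak are printed for named enhancers, on the plus strand of hg19 (GRCh37). Capitals mark the TRE (TGACTCA or its reverse complement TGAGTCA), the core word of TEAD factors (GGAATG or CATTCC) and the core word of RUNX factors (TGTGGTT or AACCACA). The first group holds 3 of the 4 members with at least 5 p300/CBP peaks, and the member left out had no TRE at its widest peak. The FEZF2 member (chr3:62587301-62587451) lies in an intron of CADPS, 231 kb upstream of the TSS of FEZF2. The DUSP6 member (chr12:89768076-89768226) lies 20.5 kb upstream of DUSP6, which encodes a phosphatase that inactivates ERK, within an intron of a non-coding gene. The MBNL2 member (chr13:97910476-97910626) lies in an intron of MBNL2, a splicing regulator, 35.9 kb downstream of its TSS. In the last sequence, a RUNX word and a TRE adjoin each other.
FEZF2 member: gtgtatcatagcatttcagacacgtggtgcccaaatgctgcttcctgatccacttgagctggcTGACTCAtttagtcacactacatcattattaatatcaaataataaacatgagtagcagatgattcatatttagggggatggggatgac
DUSP6 member: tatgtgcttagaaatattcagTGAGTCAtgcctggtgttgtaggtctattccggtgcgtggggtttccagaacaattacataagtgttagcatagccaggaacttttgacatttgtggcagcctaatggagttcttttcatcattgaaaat
MBNL2 member: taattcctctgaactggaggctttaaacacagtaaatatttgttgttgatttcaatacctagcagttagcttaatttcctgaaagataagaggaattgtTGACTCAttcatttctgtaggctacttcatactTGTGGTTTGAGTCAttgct

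The next group is the cluster of 4 members in which each window held a TRE, on chromosome 4 in an intron of the non-coding gene LINC01182. Its sequences lie at chr4:13889901-13890051, chr4:13893801-13893951, chr4:13909126-13909276 and chr4:13922701-13922851, and the nearest protein-coding TSS is that of BOD1L1, 277 kb from the middle of the cluster. In the third of them a TRE and a TEAD word overlap, and the fourth holds 2 TREs.
BOD1L1 cluster 1: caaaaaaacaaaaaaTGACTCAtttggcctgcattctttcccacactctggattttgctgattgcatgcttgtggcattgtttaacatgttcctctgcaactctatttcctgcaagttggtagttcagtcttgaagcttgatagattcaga
BOD1L1 cluster 2: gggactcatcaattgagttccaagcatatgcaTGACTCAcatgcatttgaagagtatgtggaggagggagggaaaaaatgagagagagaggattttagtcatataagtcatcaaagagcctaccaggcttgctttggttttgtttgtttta
BOD1L1 cluster 3: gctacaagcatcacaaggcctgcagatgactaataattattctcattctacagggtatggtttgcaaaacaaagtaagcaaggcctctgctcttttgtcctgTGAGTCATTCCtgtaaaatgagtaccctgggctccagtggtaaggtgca
BOD1L1 cluster 4: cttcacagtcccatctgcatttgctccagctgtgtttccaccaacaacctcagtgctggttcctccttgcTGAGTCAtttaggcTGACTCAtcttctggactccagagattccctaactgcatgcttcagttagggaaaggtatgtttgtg

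The last sequence is that of the member nearest to EGFR (chr7:55063751-55063901), the gene of the epidermal growth factor receptor. It lies between genes, 24.1 kb upstream of the TSS, and holds none of the 3 words. The sequences are examples and do not stand for all members, since those of the cluster were picked for their TREs, and over all members 43.1% held one at the widest peak. The window at the member nearest to CD44, which holds no TRE, overlaps an exon and is not printed.
EGFR member: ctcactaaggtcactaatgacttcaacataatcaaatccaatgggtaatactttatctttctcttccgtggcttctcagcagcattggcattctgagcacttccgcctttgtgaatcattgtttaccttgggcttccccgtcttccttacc

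The p300/CBP signal within these enhancers was usually a single narrow peak. A single peak was present in 2652 members, or 82.6%, 2 peaks in 487, and 3 or more in 71. The widest peak of a member had a median width of 200 bp, with quartiles of 100 bp and 300 bp and a largest width of 1050 bp, and its centre lay a median of 425 bp from the centre of the H3K4me1 region. The H3K4me1 regions themselves had a median width of 3650 bp (quartiles 2500 and 5350 bp). H3K27ac covered a median of 60.5% of each (quartiles 39.7% and 79.2%). The p300/CBP peak lay on an H3K27ac region in 2627 members, or 81.8%, between 2 such regions in 175, and beside them in 408. These values describe the signals that selected the members. Altogether, members were touched by 3856 of the 13984 p300/CBP peaks, or 27.6%.

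At the limits of the criteria, the widest member measured 9950 bp and 3 regions of 10000 bp were left out. The least p300/CBP overlap, 50 bp, was found in 12 members, while 11 regions counted as lacking p300/CBP adjoined a peak without a shared base. The least H3K27ac overlap, also 50 bp, was found in 2 members. An H3K4me3 region lay within 1 kb of 37 members, and 2 regions were counted as carrying H3K4me3 on the basis of 50 bp. Sequence up to 5 Mb away from each chromosome's longest undetermined stretch, together with chromosomes Y and M, held 35.3% of all p300/CBP peaks but 156 members, or 4.86%.

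For comparison, 3 other sets of regions were formed, each differing from the members in 1 criterion and all under 10000 bp and away from TSS windows. Active enhancers without H3K4me3 and without p300/CBP numbered 12473, active enhancers with both p300/CBP and H3K4me3 numbered 1182, and H3K4me1 regions with p300/CBP but neither H3K27ac nor H3K4me3 numbered 578. Their median widths were 2250, 5150 and 1850 bp, respectively, which bears on any overlap because a wide region meets a peak more easily. H3K27ac at the TSS windows of marker genes was examined as a description of the cells. It was present at all 6 markers tested for mesenchymal triple-negative breast cancer cells (VIM, CD44, EGFR, FOSL1, AXL and ZEB1). It was absent from 6 of the 9 luminal and epithelial markers (ESR1, PGR, GATA3, CDH1, EPCAM and GRHL2) and present at ERBB2, FOXA1 and ESRP2. The paper classed most annotated promoters as carrying H3K27ac, so its presence at a marker is not particular to that gene. The share over all TSS windows used here is not given.

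AP-1 elements were concentrated at the p300/CBP peaks of the members. In the 200 bp around the centre of the widest peak, 1384 of the 3210 members held at least 1 TRE, or 43.1% (41.4% to 44.8%). In windows of the same size 1000 bp to the left and to the right, the shares were 3.99% (3.36% to 4.72%) and 3.30% (2.74% to 3.98%), and 3.00% (2.87% to 3.15%) of windows placed every 50 kb along the genome held one. The share at the peaks exceeded that at the 2 flanks together by 39.5 percentage points (37.7 to 41.2). A single TRE was found in 1153 windows, and 2 or more in 231, with a maximum of 4. The element was not enriched at TSSs, where 2.11% of windows held it.

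The TRE lay close to the peak centre. In the members its density was 3.17 and 3.30 copies per kb in the 50 bp on either side of the centre and 0.212 copies per kb at the outermost bins, 950 to 1000 bp away. Among the members with a TRE in the window, the nearest copy was at a median of 34.0 bp from the centre, which is known to within the 50-bp bins of the signal. The 200-bp window caps this distance, so the median by itself does not show closeness. Over whole regions, in contrast, the members held 0.370 TREs per kb (0.359 to 0.380), against 0.388 (0.382 to 0.395) in active enhancers without p300/CBP and 0.161 (0.160 to 0.161) in the genome. Once 200 bp around every p300/CBP peak were taken out, the density in the members was 0.246 per kb (0.237 to 0.255). At the middle of the widest H3K27ac segment, chosen without regard to p300/CBP, 15.3% of members and 16.2% of active enhancers without p300/CBP held a TRE, a difference of -0.891 percentage points (-2.26 to 0.544). The 2 classes of active enhancers thus could not be told apart by the TRE at that place.

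**Figure D1:**
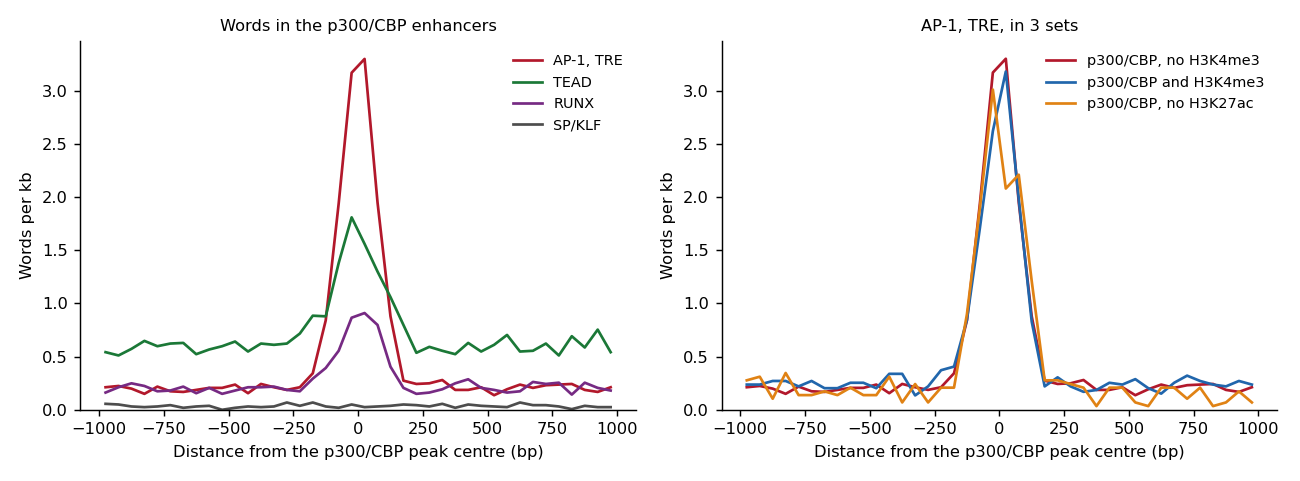
Copies per kb of short factor words (vertical axis) in 50-bp bins against the distance in bp from the centre of the widest p300/CBP peak. The left panel shows 4 words in the 3210 members and the right panel the TRE in the members and in 2 other sets with p300/CBP. The TRE reaches 3.30 copies per kb beside the centre of the members and 0.212 in the outermost bins.

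Bases next to the TRE were also uneven. Read on the strand that carries TGACTCA, the base before it was A in 38.6% (36.3% to 41.0%) of the 1639 copies in member windows and T in 8.42% (7.17% to 9.86%). In all 459778 copies of the genome the corresponding shares were 23.9% and 25.3%. The base after it was T in 36.1% (33.8% to 38.4%) and A in 10.9%, against 24.4% and 22.8% in the genome. A before and T after the element were found together in 13.7% (12.1% to 15.5%) of the copies, against 5.98% (5.91% to 6.04%) genome-wide.

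Other words searched on both strands differed in whether they gathered at the peaks. The TEAD word, bound by the DNA-binding partners of YAP and TAZ, was present in 25.2% (23.8% to 26.8%) of member windows, against 9.41% and 10.4% at the flanks. The RUNX word was present in 14.3% (13.2% to 15.6%), against 3.61% and 3.93%. The word of C/EBP factors (TTGCNNAA) was found in 17.6% of member windows, against 9.94% and 11.2%, and that of FOX factors (TGTTTAC) in 9.07%, against 3.43% and 3.12%. For these 4 words the interval of the difference from either flank left out 0. The ETS word (CCGGAAG) was rare, at 1.18% against 0.623% and 0.312%, with intervals that also left out 0.

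The remaining words did not gather there. GATA words (AGATAA) were found in 14.0% of member windows and in 14.0% and 14.4% of the flanks. The CRE (TGACGTCA), another element bound by AP-1 and CREB family dimers, was found in 5 windows, or 0.156% (0.0666% to 0.364%). The NF-kB word (GGGANTTCC) was present in 0.561%, the SP/KLF word (GGGCGGG) in 0.623% and the CTCF core word (AGGGGGC) in 1.5%, with intervals of the difference from the flanks that included 0. The E-box bound by ZEB and SNAI factors (CAGGTG) was less frequent at the peaks, at 8.85% (7.91% to 9.88%) against 16.1% and 14.1%. In windows placed every 50 kb along the genome, the TEAD word was found in 10.7%, the RUNX word in 3.83%, the C/EBP word in 10.7%, the FOX word in 3.19%, the GATA word in 14.9% and the E-box in 14.5%. At TSSs, where SP/KLF and ETS words were found in 38.1% and 11.3% of windows, TEAD and RUNX words were found in 6.42% and 1.94%. A word match is a description of the sequence, and binding at these words was not measured here. Each word was counted separately, and overlapping words each counted.

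**Figure D2:**
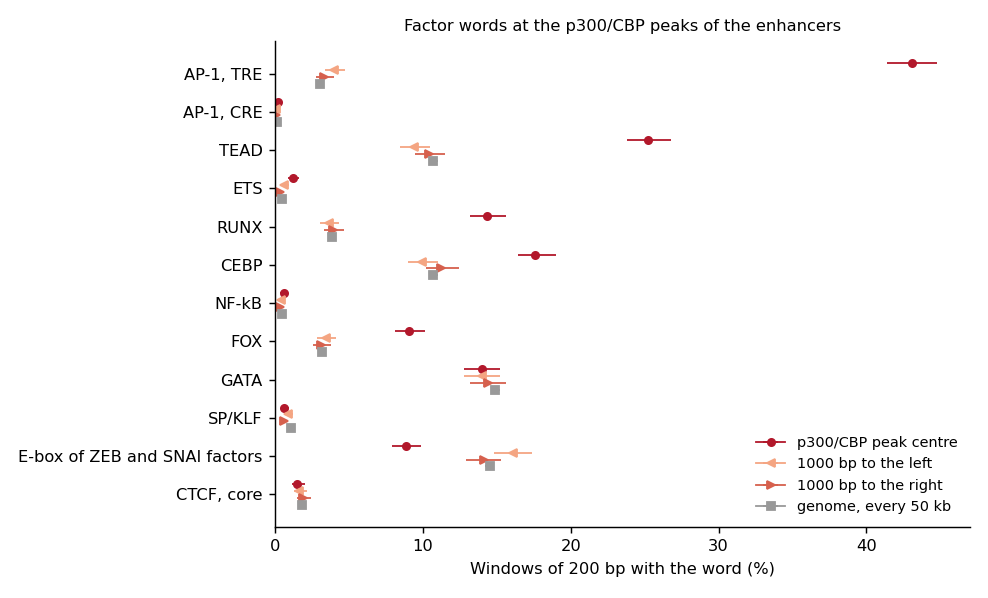
Percentage of 200-bp windows that hold each of 12 words (horizontal axis), at the widest p300/CBP peak of the 3210 members, 1000 bp to either side, and every 50 kb along the genome. Bars are 95% Wilson intervals. The TRE, at 43.1%, stands farthest from its flanks and the E-box lies below them.

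TEAD, RUNX and C/EBP words were less frequent in members with a TRE than in those without. The TEAD word was present in 22.3% of the 1384 windows with a TRE and in 27.4% of the 1826 without, a difference of -5.11 percentage points (-8.09 to -2.09). The RUNX word was present in 10.5% and 17.2%, a difference of -6.65 (-9.00 to -4.25), and the C/EBP word in 15% and 19.7%, a difference of -4.70 (-7.30 to -2.06). The E-box went the other way, with 10.2% and 7.83%, a difference of 2.36 points (0.368 to 4.41). At least 1 of the TRE, TEAD and RUNX words was found in 2120 members, or 66.0% (64.4% to 67.7%), and the other 1090 held none of them.

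Within the members the share with a TRE differed with the p300/CBP peak and the width of the region. It was 39.4% where the widest p300/CBP peak measured 100 bp and 44.9% where it measured 300 bp or more, a difference of 5.53 percentage points (1.18 to 9.85). With 2 or more p300/CBP peaks it was 37.6% at the widest, against 44.3% with 1 peak (-6.63 points, -11.0 to -2.13). Where the peak lay between 2 H3K27ac regions it was 34.3%, against 43.6% on H3K27ac (-9.30 points, -16.2 to -1.76). Where the peak lay beside H3K27ac it was 43.9%. For all peaks off H3K27ac the share was 41.0%, and its difference from peaks on H3K27ac included 0 (-2.59 points, -6.95 to 1.87). In regions of 6000 bp or wider it was 39.6%, against 46.3% under 2000 bp (-6.72 points, -12.8 to -0.631). Members with and without Pol II had shares of 41.3% and 43.3%, and those with and without CTCF 40.3% and 43.4%. Members over 50 kb from a TSS and nearer ones had shares of 43.4% and 42.5%. The last 3 differences had intervals that included 0.

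The TRE was about as frequent at p300/CBP peaks of the other enhancer classes. It was present in 39.3% (36.6% to 42.2%) of the enhancers with H3K4me3, 3.78 percentage points less than in the members (0.485 to 7.02). That difference was 0.117 points (-3.40 to 3.60) without regions near undetermined sequence, where 13.7% of the regions with H3K4me3 lay, and 1.70 points (-1.62 to 5.01) when any p300/CBP peak of a region counted. In the regions without H3K27ac the share was 38.8% (34.9% to 42.8%), and the difference of 4.36 points (-0.0178 to 8.61) could not be told from 0, although in 5 alternative settings it was 4.43 to 6.40 points with an interval that left out 0. FOX words were more frequent in these regions, at 16.8% against 9.07% in the members (-7.72 points, -11.1 to -4.71), and TEAD words less so, at 18% against 25.2% (7.24 points, 3.59 to 10.5). p300/CBP peaks outside H3K4me1 and away from undetermined sequence held a TRE in 15.9% (14.2% to 17.6%) of 1823 windows. The members exceeded these by 27.3 points (24.8 to 29.6), and the odds ratio over 10 strata of GC content was 3.66 (3.16 to 4.24).

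Pol II was found at a minority of the members. A Pol II peak overlapped 286 of them, or 8.91% (7.97% to 9.94%), and 272 of these held a whole Pol II peak within the region. The widest Pol II peak there had a median width of 350 bp, against 850 bp in the whole Pol II list, and Pol II lay on the widest p300/CBP peak itself in 141 of the 286. Active enhancers with p300/CBP and H3K4me3 carried Pol II in 54.1% (51.3% to 57.0%) of cases, and the difference of the members from them was -45.2 percentage points (-48.2 to -42.2). Without regions near undetermined sequence this difference was smaller, at -40.6 points (-43.8 to -37.3). Regions without H3K27ac carried Pol II in 1.04% (0.477% to 2.25%), or 6 of 578, and the members exceeded these by 7.87 points (6.34 to 9.05). The direction of both differences was kept within 10 strata of region width, where the odds ratios were 0.108 (0.0911 to 0.128) and 3.41 (1.44 to 8.09), respectively.

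Against active enhancers without p300/CBP the result depended on region width. Pol II overlapped 8.32% (7.85% to 8.82%) of these, and the difference of 0.588 points (-0.473 to 1.73) could not be told from 0. Within 10 strata of width, however, the odds ratio was 0.688 (0.593 to 0.799), which is the opposite direction. In 4 alternative settings without strata, in contrast, the difference was positive with an interval that left out 0, at 1.29 to 2.71 points. Under 2000 bp, Pol II was present at 1.16% of the members (0.495% to 2.68%) and at 5.13% of the enhancers without p300/CBP (4.56% to 5.76%). From 6000 bp to 10000 bp the shares were 21.7% (18.6% to 25.1%) and 20.2% (17.3% to 23.4%). Regions within a stratum can still differ in width. Members with 2 or more p300/CBP peaks carried Pol II in 15.1% (12.3% to 18.3%) of cases and those with 1 peak in 7.62% (6.67% to 8.69%). This split was not made within strata of width.

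CTCF was less frequent at the members than at other active enhancers. A CTCF peak overlapped 325 members, or 10.1% (9.13% to 11.2%), against 14.2% (13.6% to 14.8%) of active enhancers without p300/CBP, a difference of -4.07 percentage points (-5.25 to -2.83). In spite of the greater width of the members, the Wilson intervals of both sets were apart in each width class below 6000 bp, and the odds ratio over 10 strata was 0.540 (0.472 to 0.618). Under 2000 bp the shares were 4.17% (2.65% to 6.49%) and 12.7% (11.8% to 13.6%). With H3K4me3 the share was 21.1% (18.8% to 23.5%), from which the members differed by -10.9 points (-13.6 to -8.46), with an odds ratio over width strata of 0.520 (0.432 to 0.626). Without regions near undetermined sequence this difference was smaller, at -8.08 points (-10.8 to -5.57). Without H3K27ac the share was 2.94% (1.84% to 4.66%), 7.18 points below the members (5.20 to 8.73). Here the odds ratio over strata of width, 1.65, had an interval that included 1 (0.978 to 2.79). CTCF lay on the widest p300/CBP peak itself in 54 members, or 1.68% (1.29% to 2.19%). Pol II and CTCF together were found in 44 members.

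**Figure D3:**
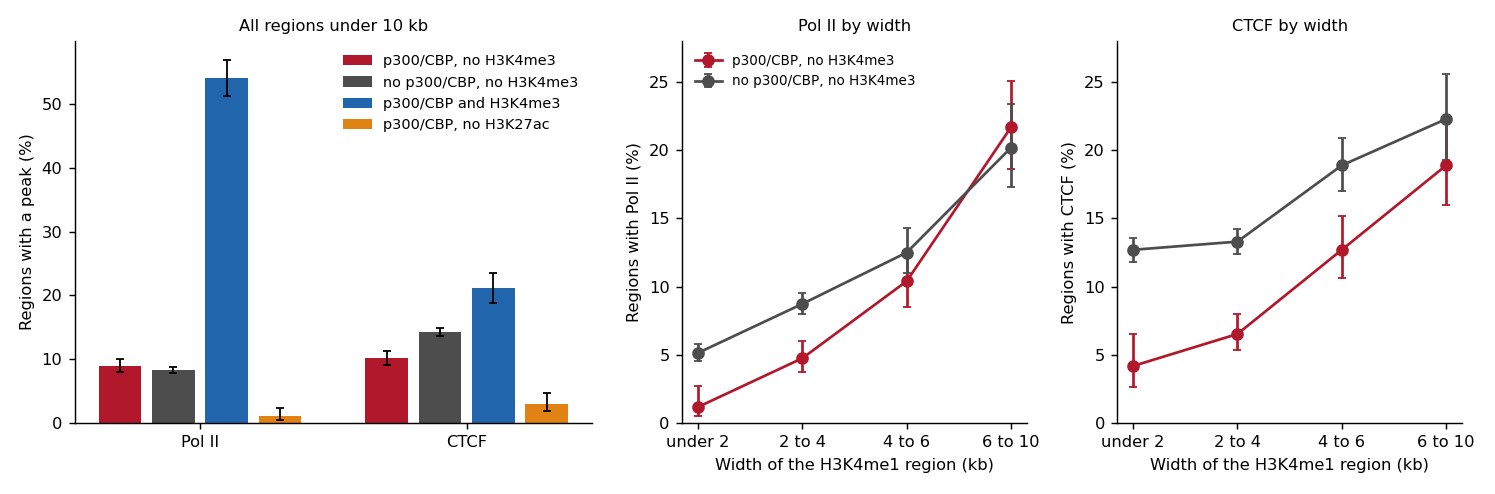
Left, percentage of regions that overlap a Pol II or CTCF peak in the members (3210) and the 3 comparison sets. Middle and right, the same percentages (vertical axis) for Pol II and CTCF in 4 classes of H3K4me1 width in kb (horizontal axis), for active enhancers with and without p300/CBP, with 95% Wilson intervals as bars. Both shares grow with width, and CTCF in the members stays under that of the enhancers without p300/CBP in every class, with intervals that overlap from 6 to 10 kb.

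Most members lay over 50 kb from the nearest canonical TSS of a protein-coding gene. The criteria had removed regions touching a 3 kb window around such a TSS, from the comparison sets as well. The members also lack H3K4me3 by selection, and TSSs of non-coding genes were not counted. The median distance from the centre of a member to the nearest TSS was 83.9 kb (78.9 to 89.7), with quartiles of 35.5 and 202 kb. Active enhancers without p300/CBP lay at a median of 47.5 kb (46.2 to 49.0), those with p300/CBP and H3K4me3 at 65.1 kb (58.7 to 70.9), and regions without H3K27ac at 109 kb (94.0 to 133). A distance over 50 kb was found for 65.4% of the members (63.8% to 67%) and for 48.5% of the active enhancers without p300/CBP, 16.9 percentage points less (15 to 18.8), and the odds ratio within width strata was 2.32 (2.13 to 2.53). Within 10 kb of a TSS lay 5.08% of the members and 12% of the enhancers without p300/CBP. The centre of a member was inside a protein-coding gene in 1424 cases, or 44.4% (42.7% to 46.1%), against 55.3% (54.4% to 56.1%) without p300/CBP, and in an exon of a canonical transcript in 53 cases.

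**Figure D4:**
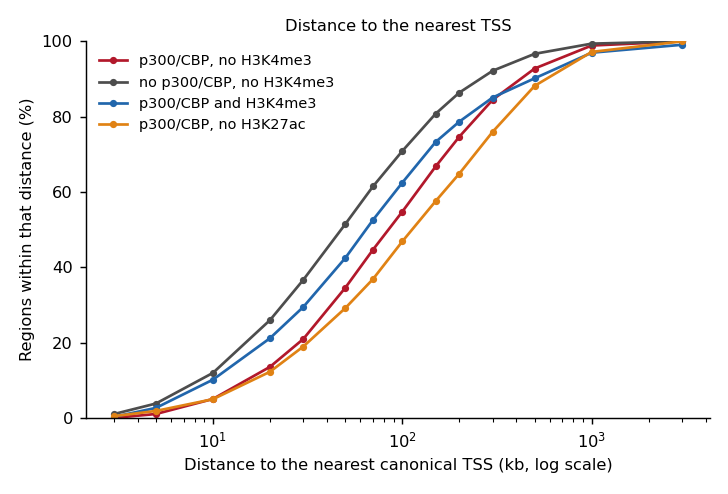
Cumulative percentage of regions (vertical axis) whose centre lies within a given distance of the nearest canonical TSS (horizontal axis, kb, log scale), for the members and the 3 comparison sets. Within 50 kb lie 34.6% of the members, and the curve of the active enhancers without p300/CBP runs above theirs up to 1000 kb.

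Chromosomes differed in how many of their active enhancers without H3K4me3 carried p300/CBP. Over all chromosomes the share was 20.5% (19.8% to 21.1%). It was highest on chromosome 4, with 229 of 860 enhancers or 26.6% (23.8% to 29.7%), followed by chromosomes 8 and 3 with 25.5% and 25.1%. It was lowest on chromosome 19, with 22 of 304 or 7.24% (4.83% to 10.7%), and was 7.55% (5.17% to 10.9%) on chromosome X and 8.20% (5.43% to 12.2%) on chromosome 22. The number of copies of each chromosome in these cells was not analysed here.

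Most members stood apart from other members. When members were joined over gaps of up to a distance set between 12 and 13 kb, 2697 had no other member beside them and 513, or 16.0%, fell into 246 clusters, of which 228 held 2 members, 15 held 3 and 3 held 4. Of the active enhancers without p300/CBP, which are more numerous, 30.1% fell into clusters of their own kind. The first cluster of 4 is the one in LINC01182 shown above, where 1 member carried CTCF and none carried Pol II. The second spans chr6:46881401-46910201 and contains the TSS of ADGRF5, an adhesion G protein-coupled receptor. It held 7 p300/CBP peaks, and 1 of its members carried Pol II. The third spans chr12:66023501-66058151, 177 kb from HMGA2, the gene of an architectural chromatin protein, and 2 of its members carried Pol II and 3 a TRE.

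The 4 members with 5 or more p300/CBP peaks held 21 peaks, all of them on H3K27ac, and 9 of the 21 windows contained a TRE. A TRE was present at the widest peak in 3 of the 4, Pol II in 2 and CTCF in 0. The FEZF2 member, of 9350 bp, held 6 peaks of 100 to 350 bp, and 2 of the 6 windows around them contained a TRE. The DUSP6 member, of 8100 bp, held 5 peaks, 2 of them with a TRE in the window. In the MBNL2 member, of 8400 bp, 4 of the 5 windows had a TRE. Pol II was present at the FEZF2 member and not at the DUSP6 and MBNL2 members. A further 8 members held 4 peaks.

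The nearest TSS to a member belonged to one of 1999 protein-coding genes, for 1323 of which it was the only such member. The gene nearest to the most members was CITED2, which encodes a co-regulator that itself binds p300 and CBP. It had 11 members at 281 to 1164 kb from its TSS, and 9 active enhancers without p300/CBP. HAS2, the gene of a hyaluronan synthase, had 9 members at 108 to 525 kb. RND3, which encodes an atypical small GTPase, had 8, of which 4 lay within 100 kb. TNS3, which encodes the focal adhesion protein tensin 3, also had 8.

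A count of 7 members was found for AKR1E2, an aldo-keto reductase gene, GATA3, a luminal transcription factor gene, IRS1, which encodes an insulin receptor substrate, KCNMA1, which encodes a calcium-activated potassium channel, SOX9, a transcription factor gene, and SPRY2, which encodes an inhibitor of receptor tyrosine kinase signalling. For SOX9 and SPRY2 none of the 7 lay within 100 kb, and for KCNMA1 the nearest was at 7.87 kb. Proximity along the chromosome does not show which gene an enhancer acts on, and contacts between them were not analysed here.

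Of all 19894 protein-coding genes, 2611 had a member within 100 kb of the TSS, or 13.1% (12.7% to 13.6%), with a median of 0 members. At this distance the shares were higher, with intervals that left out this value, in the lists of growth factor, matrix, inflammatory, luminal and YAP genes. The intervals of the AP-1 family, other-tissue and ribosomal lists included it. All these intervals treat genes as independent, although neighbouring genes of a list can share a member, which makes the intervals too narrow. Within 250 kb the intervals of the inflammatory, luminal and YAP lists also included the share of all genes, 28.9%. Among 24 genes of growth factor receptors, their ligands and MAPK feedback, 12 had a member within 100 kb, or 50% (31.4% to 68.6%), with a median of 0.5. EGFR and AREG, the gene of the EGFR ligand amphiregulin, had 3 members each. EREG, the gene of the ligand epiregulin, and MET, the hepatocyte growth factor receptor gene, had 2 each. The 2 members of EREG were among the 3 of its neighbour AREG. Among 34 matrix, adhesion and mesenchymal genes, 14 did, or 41.2% (26.4% to 57.8%), with a median of 0. ITGA2, an integrin gene of collagen receptors, and TGFBR2, a TGF-beta receptor gene, had 3 members each, and CAV1, the caveolin gene, had 2, which it shared with its neighbour CAV2.

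Of 15 genes of YAP, TAZ, the TEAD factors and their targets, 5 had a member (33.3%, 15.2% to 58.3%). YAP1 itself, AMOTL2, which encodes a YAP-binding angiomotin family protein, and CRIM1, a transmembrane protein gene, had 2 each, and CCN1, a matricellular protein gene, had 1. Of 10 AP-1 family genes, 3 did (30%, 10.8% to 60.3%), JUN with 2 members and BATF and BATF3 with 1 each. The nearest member to FOSL1 was 529 kb away, although 1 active enhancer without p300/CBP lay within 100 kb of it. ETS1, TGFB2 and KRT80 likewise had no member within 100 kb, and their nearest were at 379, 135 and 1368 kb. Regions of 10000 bp or more, with H3K4me3, or touching a TSS window are not members. The lack of a member near these genes thus does not show a lack of p300/CBP there.

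Of 20 inflammatory genes, 7 had a member (35.0%, 18.1% to 56.7%), and the cytokine genes CSF2, CXCL8 and IL6 and the NF-kB inhibitor gene TNFAIP3 had 2 each. Of 24 luminal and epithelial genes, 8 did (33.3%, 18% to 53.3%). CLDN3, a tight junction gene, and GATA3 had 2, and CDH1, the E-cadherin gene, and CLDN4 had 1, although the TSS windows of GATA3 and CDH1 carried no H3K27ac. The member of CLDN4 was also 1 of the 2 of its neighbour CLDN3. Among 24 genes of other tissues, 4 did (16.7%, 6.68% to 35.9%). PTPRC, the leukocyte phosphatase gene CD45, had 3, the nearest at 2.56 kb, and APOA1 and GFAP had 1 each. Among 25 cytosolic ribosomal protein genes, 1 did, RPL10A (4%, 0.710% to 19.5%).

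Numbers of members near a gene are set beside those of active enhancers, and whether the latter account for the former was not tested. Ribosomal protein genes had a mean of 2.04 active enhancers without p300/CBP and 0.0400 members within 100 kb, and genes of growth factor receptors and MAPK feedback had means of 2.04 and 0.792. Over all protein-coding genes these means were 1.2 and 0.171, and members made up 3407 of the 27324 pairs of a gene and an active enhancer without H3K4me3. Members made up 27.9% of such pairs (19 of 68) for the growth factor and MAPK genes, 24.5% near matrix and adhesion genes, 23.5% near the YAP, TAZ and TEAD genes, 15.4% to 18% near the AP-1, luminal, inflammatory and other-tissue lists and 1.92% near ribosomal protein genes, with a region counted once for each gene. The lists are small, their intervals overlap one another except for those of the ribosomal list with the matrix and growth factor lists, and no test was made between them.

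**Figure D5:**
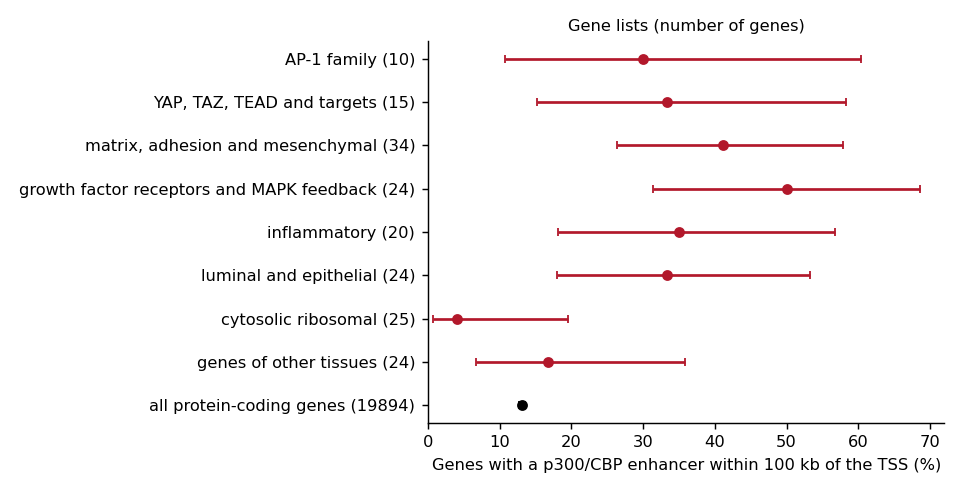
Percentage of the genes of each list with at least 1 member within 100 kb of the canonical TSS (horizontal axis), with the number of genes in parentheses and 95% Wilson intervals as bars. The growth factor and MAPK list stands at 50% and the ribosomal list at 4%, beside 13.1% of all protein-coding genes (black).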

How the data were processed

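Chromatin immunoprecipitation and sequencing was done by the authors in MDA-MB-231 cells. According to their methods, reads were aligned to hg19 with BWA-backtrack, while the submitters' notes name Bowtie2. Signal in 50-bp bins was made with PASHA, replicates were merged, and peaks were called by thresholding. The deposited files are position lists with other values absent (3 columns, no count, height or score), so depth is unknown. Starts and ends lie 1 past multiples of 50, and ends were taken as exclusive. Input libraries were not analysed here.

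Overlaps of at least 1 bp were computed in Python 3.11.15 (NumPy 2.4.6, SciPy 1.17.1, matplotlib 3.10.9), with TSSs and genes of GENCODE release 44 on GRCh37 (19894 canonical TSSs) in place of the authors' RefSeq set. Shares carry 95% Wilson intervals, differences Newcombe intervals, densities exact Poisson intervals and medians order-statistic intervals. Newcombe intervals treat the 2 shares as independent, so the pairing of peak and flank windows of the same member was ignored. Mantel-Haenszel odds ratios used 10 strata. The functions for overlaps, word searches, Wilson and Newcombe intervals and odds ratios were tested on simulated data, and the other steps were not. Words were counted on both strands in 200-bp windows. The members, gene lists and words were chosen with earlier results of these data known. Named were the 10 genes nearest to the most members, the clusters and members with the most regions or p300/CBP peaks (those tied at the cut-off left unnamed), up to 4 genes a list (ties in alphabetical order), and the members nearest to FOSL1, CD44, EGFR, ETS1, TGFB2 and KRT80 within 100 kb. The sequences of the LINC01182 cluster and of members with 5 or more p300/CBP peaks were chosen for printing after their values were seen. Some items that these rules name are not reported here.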

Additional observations from a re-analysis of the deposited data

How the results depend on the processing

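No paired analysis was possible because each list came from already merged libraries, so that leaving one out was not an option either. The lists give no depth, which limits every share to counting error, and a stricter threshold could only be replaced by a minimum peak width. Across 51 results, 145 of 185 alternative values kept their direction and side of 0, or stayed within the interval of the reported value or 1.5 times the reported count. The count of 3210 members ranged from 2209, with p300/CBP peaks of at least the median width, to 3413, with no width limit. Unless the alternative itself adds or removes regions or sequence, the cause was not tested.

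The Pol II share of the members was 10.8% with no width limit and 10.7% with the p300/CBP peak on H3K27ac. Its difference from active enhancers without p300/CBP reversed to an odds ratio of 0.688 within width strata, and left 0 behind at 1.29 points with wide p300/CBP peaks, 2.29 with no width limit, 2.71 with the peak on H3K27ac and 2.16 with the Pol II centre inside. The CTCF share was 11.4% with no width limit and 8.66% outside genes, and its difference from regions without H3K27ac became an odds ratio of 1.65 within width strata, no longer apart from 1.

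The TRE share was 27.8% in 100 bp, 50.8% in 400 bp and 46.5% over all p300/CBP peaks of an enhancer. Its difference from enhancers with H3K4me3 was 0.117 points away from undetermined sequence and 1.70 over all peaks, both with intervals that included 0. Its difference from regions without H3K27ac left out 0 with the p300/CBP centre inside (4.57), all basic TSSs (4.54), no H3K4me3 within 1 kb (4.43), 100-bp windows (5.99) and all peaks (6.40). Away from undetermined sequence, a setting added for other words after seeing the data, the differences from enhancers with H3K4me3 were 2.18 points for the RUNX word and -1.16 for the TEAD word, no longer apart from 0.

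The following width strata were chosen after seeing the data. Those for the centre inside a gene gave odds ratios of 1.21 against enhancers with H3K4me3, now apart from 1, and 0.679 against regions without H3K27ac, reversed. Those for a TSS distance over 50 kb gave 1.11 against regions without H3K27ac, reversed, with an interval that included 1. With all basic TSSs, median distances were 68.5 kb for the members, 37.4 kb without p300/CBP, 51.9 kb with H3K4me3 and 90.6 kb without H3K27ac. Genes with a member were 6.85% within 50 kb, 28.9% within 250 kb and, in an alternative added later, 12.4% away from undetermined sequence. The matrix list had 73.5% within 250 kb, the luminal list 16.7% within 50 kb, and the ribosomal list 0% within 50 kb and 20% within 250 kb. Within 250 kb, intervals included the share of all genes for the inflammatory (21.9% to 61.3%), luminal (27.9% to 64.9%) and YAP (24.8% to 69.9%) lists. The luminal interval within 50 kb (6.68% to 35.9%) included it too. Those of the growth factor and matrix lists left it out at both distances. Clusters held 7.79% of members with a joining distance of 5 kb and 25.7% with 25 kb, and 16.2% and 44.9% of active enhancers without p300/CBP.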

Other observations

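Enhancers with p300/CBP and H3K4me3 away from canonical TSSs differed from the members in the C/EBP word at p300/CBP peaks. It was found in 12.1% and 17.6% of windows, respectively, a difference of 5.53 percentage points (3.17 to 7.74), and of 5.43 points (2.88 to 7.78) without regions near undetermined sequence. The RUNX word was found in 11.3% of their p300/CBP windows and in 14.3% of those of the members, a difference of 3.08 points (0.823 to 5.17) that was 2.18 points (-0.275 to 4.45), no longer apart from 0, without regions near undetermined sequence. The SP/KLF word was more frequent with H3K4me3, with 1.78% and 0.623%, a difference of -1.15 points (-2.10 to -0.455), although its odds ratio within 10 strata of GC content, 0.639, had an interval that included 1 (0.335 to 1.22).

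Regions with p300/CBP but no H3K27ac carried RUNX words in 18.2% of windows, against 14.3% of the members, a difference of -3.84 points (-7.38 to -0.649), and of -4.20 points (-7.87 to -0.915) without regions near undetermined sequence. Over their whole length they held 0.461 TREs per kb (0.423 to 0.5), against 0.370 in the members, which are wider.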
